A study of Mus musculus with 20 samples.

Results

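The 4 genes described here, Cp, Serpina3i, A2m and Serpina1e, encode ceruloplasmin and 3 inhibitors of proteases, proteins that are released into the blood. They are 4 of 5552 mouse genes that could be read from the deposited counts and 4 of the 2200 that had enough counts to be tested. Livers of 20 mice were sequenced as RNA, 5 mice in each of 4 groups: control mice with no antibiotics, control mice with antibiotics (ABX), mice given anti-CD40 with no antibiotics, and mice given anti-CD40 with ABX. Anti-CD40 is an antibody to CD40, a receptor on B cells, macrophages and dendritic cells, and the design asks how the liver responds to it with and without an antibiotic-treated gut flora. The strain, sex and age of the mice, the antibody clone, its dose and time, the antibiotics used and what control mice received are not stated in the labels used here. Each library came from 1 mouse, so the replicates are separate animals. The 4 genes were chosen by their levels in these libraries, with the differences between the groups known. Their differences between anti-CD40 and control mice are therefore given as a description, with standard errors and no test.

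Ceruloplasmin is a copper-carrying ferroxidase made by hepatocytes, and it belongs to the acute phase proteins, whose synthesis in the liver goes up with inflammatory cytokines such as interleukin 6 and interleukin 1. Serpins inhibit a protease by offering it a loop that is cut and then traps the enzyme. Serpina1e is one of several mouse copies of alpha-1-antitrypsin, and Serpina3i is one of a cluster of mouse genes related to alpha-1-antichymotrypsin. A2m encodes alpha-2-macroglobulin, which closes around proteases of many kinds after they cut a bait region, and complexes of inhibitor and protease are cleared by receptors on liver cells.

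Reads aligned to the mouse genome (build mm10) had been counted at the positions of human exons, so each gene is seen through the part of it that such positions happen to cover. For Cp (chr3:19957054-20009145, plus strand) that part was 344 bp of exon sequence, or 3.60% of the gene's exon bases: 107 coding bases of exon 15 of 20, and 237 bases that only another transcript holds as exon. For Serpina3i (chr12:104263122-104269372, plus strand) it was 428 bp, of which 404 were coding bases of exon 3 of 6. For A2m (chr6:121635376-121679227, plus strand) it was 150 coding bases of exon 15 of 36. For Serpina1e (chr12:103946931-103958975, minus strand) it was 674 bp, with 628 coding bases in exon 2 of 5 and 42 bases of the untranslated exon 1. The counted intervals also held bases outside exons: exons made up 13.6% of the bases counted for Cp, 16.7% for A2m, 21.8% for Serpina1e and 81.1% for Serpina3i. Besides intron, 1 of the 5 intervals counted for Cp and 1 of the 6 for Serpina1e lay outside the gene. The counts do not use strand, and introns of Hps3 lie under some of the intervals counted for Cp, so reads of the 2 genes cannot be told apart there.

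The coding stretches counted for Cp (chr3:19985560-19985666) and A2m (chr6:121654465-121654614) are shown. They are a part of the 2523 and 896 bases counted for those genes. Both are written 5′ to 3′ on the plus strand of mm10.
Cp: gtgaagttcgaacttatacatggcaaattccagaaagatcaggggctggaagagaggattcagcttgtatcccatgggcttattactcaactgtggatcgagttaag
A2m: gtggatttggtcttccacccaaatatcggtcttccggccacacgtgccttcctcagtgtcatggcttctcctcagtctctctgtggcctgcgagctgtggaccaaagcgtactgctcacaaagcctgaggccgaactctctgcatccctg
Neither of these coding stretches is close to another gene, and the other bases counted were not compared. Among 50-base windows of these stretches, 0 of 58 for Cp and 0 of 101 for A2m occurred in the transcripts of another gene. The nearest relatives of the A2m stretch, the predicted gene Gm7298 and the murinoglobulin genes Mug2 and Mug1, shared 60%, 59.3% and 58.0% of its bases.

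The 2 serpins have near-identical neighbours. The 60 bases in which the counted stretch of Serpina3i differs most from its 3 closest copies, chr12:104265573-104265632 on the plus strand, are set beside the copies. Capitals in the copies mark bases that differ from Serpina3i, and capitals in Serpina3i mark places where any of the copies differs.
Serpina3i: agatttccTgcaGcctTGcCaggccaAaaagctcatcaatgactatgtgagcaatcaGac
Serpina3h: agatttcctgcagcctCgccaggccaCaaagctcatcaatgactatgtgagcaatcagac
Serpina3f: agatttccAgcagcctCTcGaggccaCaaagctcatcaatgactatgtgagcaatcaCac
Serpina3g: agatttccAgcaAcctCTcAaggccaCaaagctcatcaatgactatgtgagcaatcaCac
Even here Serpina3h differed at 2 bases, Serpina3f at 6 and Serpina3g at 7. Over the 404 coding bases they shared 96.5%, 96.0% and 95.3% with Serpina3i, and 218 of 355 windows of 50 bases (61.4%) occurred in another gene as well.

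The same holds for Serpina1e, shown for chr12:103950797-103950856 on the minus strand, read 5′ to 3′ along the gene, with capitals used in the same way.
Serpina1e: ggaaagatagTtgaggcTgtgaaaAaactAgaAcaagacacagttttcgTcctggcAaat
Serpina1a: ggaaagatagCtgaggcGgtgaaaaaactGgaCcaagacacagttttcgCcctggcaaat
Serpina1b: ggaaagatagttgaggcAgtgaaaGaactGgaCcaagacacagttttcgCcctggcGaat
Serpina1c: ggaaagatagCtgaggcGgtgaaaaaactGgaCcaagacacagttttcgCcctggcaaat
Serpina1d: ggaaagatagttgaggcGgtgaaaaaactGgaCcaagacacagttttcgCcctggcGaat
Serpina1b differed at 6 of the 60 bases and the other copies at 5. Over the whole counted stretch of exon 2 the copies shared between 97.9% and 98.4% of bases with Serpina1e, and 368 of 583 windows (63.1%) occurred in another gene. Values named Serpina3i and Serpina1e below are therefore uncertain as to the copy, and a read from a relative that was placed at these positions would be included.

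Library totals ranged from 5053014 to 7618736 counted fragments. Levels are normalised counts per 1000000 (CPM), and the counts behind the lowest levels are given where they are few. Mouse 8, a control without ABX, stood apart from the other 4 of its group in 102 of 2200 genes (4.64%), and mouse 1, a control with ABX, in 69 (3.14%), against 9 to 35 genes in each of the other 18 mice. Mouse 8 had the highest level of all 4 genes among controls without ABX, so values without it are given. Hepatocyte transcripts identify the tissue: 6 of 20 listed hepatocyte markers could be read, and together they held 163803 to 189046 CPM in controls without ABX and 181217 to 275588 CPM with ABX. In anti-CD40 mice the sum was lower, 56611 to 83753 CPM without ABX and 84993 to 111824 CPM with ABX, and Cyp2f2 was at 0 in every group. Libraries were laid out on a plate so that columns partly follow the groups. Control mice with ABX were all in column 3 and anti-CD40 mice with ABX all in column 4, while controls without ABX were split over columns 3 and 4 and anti-CD40 mice without ABX over columns 4 and 5.

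Ceruloplasmin was 4.97-fold higher in anti-CD40 mice than in controls without ABX and 4.20-fold higher with ABX. Without ABX, the level of Cp was 947, 938, 1638, 943 and 980 CPM in control mice 6 to 10. In anti-CD40 mice 16 to 20 it was 4598, 4818, 5428, 6557 and 5666 CPM. Apart from mouse 8, the controls lay within a narrow range, and the groups did not overlap. The share of all genes whose groups did not overlap was not counted. Lack of overlap, here and below, therefore sets none of the 4 genes apart. The group means were 1089 ± 307 and 5413 ± 773 CPM (SD, n = 5), a log2 fold change of 2.31 ± 0.14 (SE), or 4.97-fold. Without mouse 8 it was 2.50. In this comparison 60.6% of the 2200 genes were called in either direction, 31.8% as higher and 28.8% as lower, so a difference as such sets a gene little apart. The log2 change of Cp was the 120th from the top.

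With ABX, Cp was 946, 1158, 1188, 1194 and 1138 CPM in control mice 1 to 5 and 4753, 4958, 4589, 4612 and 4736 CPM in anti-CD40 mice 11 to 15. Mouse 1 was the lowest of the controls, the anti-CD40 mice were within a coefficient of variation of 3.11%, and the groups again did not overlap. The means were 1125 ± 103 and 4729 ± 147 CPM (SD, n = 5) and the log2 fold change was 2.07 ± 0.14 (SE). Here 51.5% of genes were called, 26.6% as higher and 24.9% as lower. A second counted feature over Cp exons, of 32 bp and outside the values above, went the same way: 396 and 1699 CPM on average in control and anti-CD40 mice without ABX, and 392 and 1617 CPM with ABX. Without ABX, 5 macrophage markers summed to 127 to 353 CPM in controls and 283 to 1103 CPM in anti-CD40 mice, which overlapped. With ABX they summed to 129 to 197 CPM and 307 to 915 CPM. Most of the sum was Lyz2, which averaged 123 and 612 CPM without ABX. Lyz2 and Ms4a7 were called as higher and Mrc1 and Adgre1 as lower without ABX, so the markers did not move as one. Of 14 neutrophil markers, 0 could be read, and 4 readable T, NK and B cell markers summed to 17.6 to 23.3 CPM in controls and 33.3 to 44.1 CPM in anti-CD40 mice, both with ABX, and overlapped without it. Cholangiocyte markers summed to 4.55 to 7.33 CPM in controls and 14.3 to 27.7 CPM in anti-CD40 mice without ABX. With ABX the sums were 2.42 to 6.46 and 9.37 to 10.2 CPM. The 2 tested markers among them went opposite ways. Without ABX, Sox9 averaged 2.21 CPM in controls and 18.4 CPM in anti-CD40 mice, and Pkhd1 3.43 and 1.49 CPM. Endothelial markers summed to 98.7 to 146 and 25.8 to 102 CPM without ABX, which overlapped. With ABX they were at 90.5 to 115 and 14.5 to 70.3 CPM. Stellate cell markers overlapped without ABX, at 101 to 214 CPM in controls and 17.6 to 129 CPM in anti-CD40 mice. With ABX they summed to 75.8 to 185 and 6.79 to 51.3 CPM. Among anti-CD40 mice, mice 14, 15, 19 and 20 had the lowest Pecam1, an endothelial marker, at 7.4 to 15.4 CPM. The other 6 had 35.2 CPM or more. Lyz2 was also lowest in mice 14, 15, 19 and 20, at 240 to 354 CPM against 494.5 CPM or more. For these mice the level of Cp was within the range of the others or above it. A2m was at 2.46, 1.08, 25.2 and 6.46 CPM in mice 14, 15, 19 and 20. Mouse 15 had the lowest A2m of anti-CD40 mice with ABX and mouse 20 the lowest without. The part of these cell types in the levels of Cp and of the other 3 genes was not tested. In these bulk samples a change in the number of cells of a type and a change in RNA per cell cannot be told apart.

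Serpina3i went from few counts to a measurable transcript, with the largest fold of the 4 genes. Without ABX its level was 0.559, 0.808, 1.33, 0.891 and 0.505 CPM in control mice 6 to 10, from 26 counts in all. In anti-CD40 mice 16 to 20 it was 105.6, 104.1, 106.0, 127.9 and 121.4 CPM. The lowest anti-CD40 mouse was far above the highest control. The means were 0.819 ± 0.330 and 113 ± 10.9 CPM (SD, n = 5), a log2 fold change of 7.08 ± 0.24 (SE), the 6th from the top of 2200 genes, and 7.31 without mouse 8. With ABX it was 0.642, 1.45, 0, 0.177 and 0.738 CPM in control mice 1 to 5, from 17 counts, and 61.1, 68.2, 68.6, 44.2 and 55.7 CPM in anti-CD40 mice 11 to 15. The count of 0 in mouse 3 allows a level of up to 0.558 CPM. The means were 0.600 ± 0.565 and 59.6 ± 10.1 CPM (SD, n = 5) and the log2 fold change was 6.58 ± 0.27 (SE).

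A2m was the least counted of the 4 genes and the most variable. Without ABX its level was 0.279, 0.485, 1.67, 0 and 0.168 CPM in control mice 6 to 10. In anti-CD40 mice 16 to 20 it was 8.41, 30.1, 21.4, 25.2 and 6.46 CPM. Mice 17, 18 and 19 were high, mice 16 and 20 lower, and all 5 lay above the controls. The control level rests on 16 counts, 10 of them from mouse 8, and the 0 in mouse 9 allows up to 0.445 CPM. The means were 0.520 ± 0.665 and 18.3 ± 10.4 CPM (SD, n = 5), a log2 fold change of 5.14 ± 0.69 (SE), which was 6.19 without mouse 8, a shift of more than 1.5 times in fold. With ABX the level was 0.160, 0.542, 0, 0.177 and 0.369 CPM in control mice 1 to 5, from 7 counts, and 5.23, 1.87, 8.64, 2.46 and 1.08 CPM in anti-CD40 mice 11 to 15. The groups did not overlap, although mouse 15 was close to the controls, and the 0 in mouse 3 allows up to 0.558 CPM. The means were 0.250 ± 0.209 and 3.86 ± 3.10 CPM (SD, n = 5) and the log2 fold change was 3.85 ± 0.92 (SE). With plate column in the model the changes were 6.41 ± 1.55 without ABX and 6.86 ± 2.02 with ABX, so the size of the difference in A2m is uncertain.

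Serpina1e, one of the alpha-1-antitrypsin copies, was lower after anti-CD40, the opposite direction to the other 3 genes. It was also the most abundant of them, with 5.40% ± 1.43 (SD, n = 5) of counts in controls without ABX and 2.19% ± 0.193 in anti-CD40 mice without ABX. Its level was 60896, 50374, 79759, 38901 and 55543 CPM in control mice 6 to 10 and 20035, 15358, 22138, 21736 and 19252 CPM in anti-CD40 mice 16 to 20. The controls spread about 2-fold, from mouse 9 to mouse 8, and the lowest of them was above the highest anti-CD40 mouse. The means were 57095 ± 15056 and 19704 ± 2704 CPM (SD, n = 5). Serpina1e was lower by 2.90-fold, a log2 fold change of -1.53 ± 0.16 (SE), and -1.39 without mouse 8. With ABX the level was 53700, 60940, 61712, 38090 and 52316 CPM in control mice 1 to 5 and 19946, 26961, 23830, 18217 and 24605 CPM in anti-CD40 mice 11 to 15. Again the groups did not overlap. The means were 53351 ± 9508 and 22712 ± 3562 CPM (SD, n = 5) and the log2 fold change was -1.23 ± 0.16 (SE). The summed hepatocyte markers given above, which are almost all albumin, were lower too. Of the 5 tested, Cps1, Hal, Alb and Asgr1 were called lower without and with ABX. Apob, the main protein of liver lipoproteins, was called higher (0.23 ± 0.08 and 0.38 ± 0.08, SE). Asgr1 lost both calls with library totals as the only scaling, where its change with ABX went from -0.25 to 0.10. Its calls were also lost with plate column in the model. Of all genes, 28.8% and 24.9% were called lower, and 31.8% and 26.6% higher. The part of hepatocyte number or state in the level of Serpina1e was not tested.

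Compared per kilobase of exon counted, the order of the genes was the same in control and anti-CD40 mice for the first 2 places. Serpina1e led with 84710 CPM per kilobase in controls without ABX and 29234 in anti-CD40 mice without ABX, and Cp followed with 3166 and 15737. Serpina3i and A2m were at 1.91 and 3.47 CPM per kilobase in those controls, which their spread does not separate, and at 264 and 122 in those anti-CD40 mice. With ABX, Serpina1e was at 79156 and 33697 CPM per kilobase, Cp at 3270 and 13748, Serpina3i at 1.40 and 139 and A2m at 1.66 and 25.7, in control and anti-CD40 mice. Since intron bases are counted too, these levels are approximate.

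**Figure D1:**
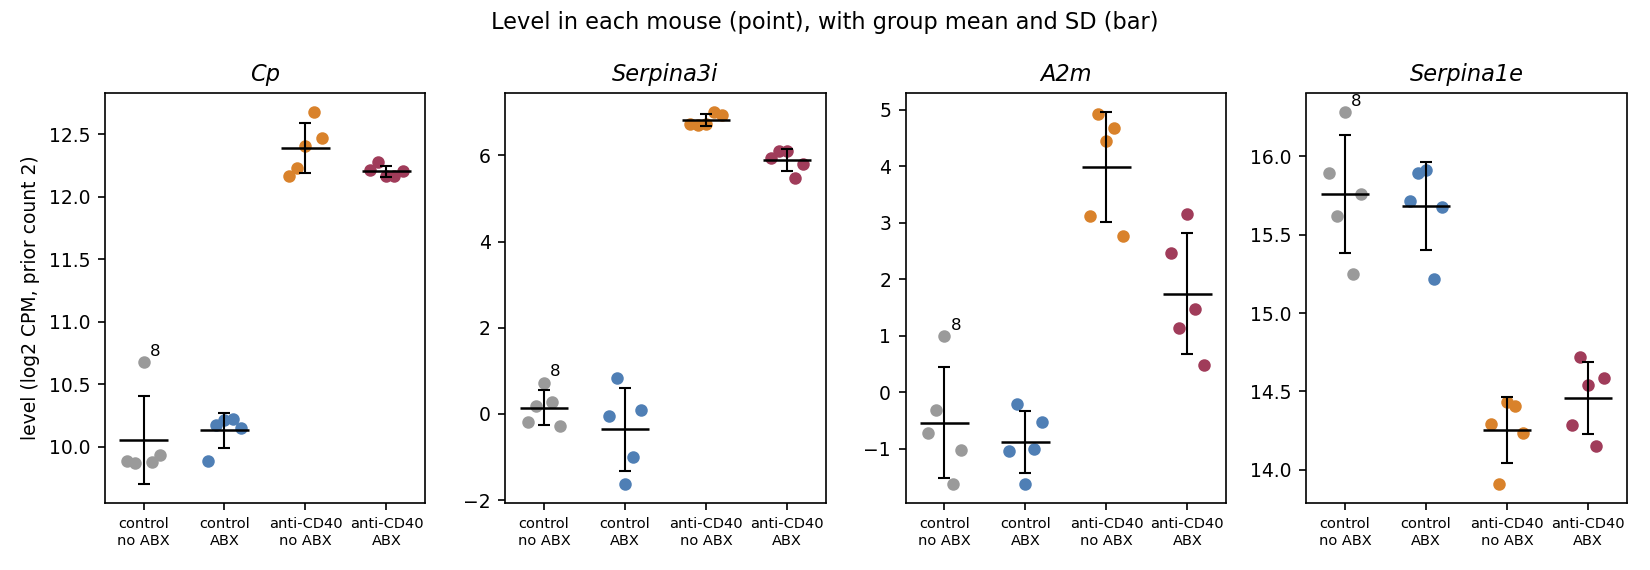
Each point is 1 mouse, on the log2 CPM scale, with the group mean and its SD as bars (n = 5 per group) and a separate vertical scale for each gene. Cp, Serpina3i and A2m were higher in both anti-CD40 groups than in both control groups, Serpina1e was lower, and mouse 8 is marked where it was the highest control without ABX.

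The comparison of ABX with no ABX within anti-CD40 mice was tested with edgeR's quasi-likelihood test over all 2200 genes, of which 15.9% were called. It uses the same anti-CD40 mice as the descriptions above, so it is not independent of how the genes were chosen. Serpina3i and A2m also passed the filter through these mice, in which they are high. A2m had 41 to 235 counts per mouse without ABX and 7 to 55 with ABX. Their adjusted p values are thus given as a description and not as support. Serpina3i was lower with ABX by 1.90-fold, a log2 fold change of -0.92 ± 0.15 (SE, adjusted p = 0.000296), and it was lower in 5 of 5 mice than in the lowest mouse without ABX. A2m was lower by 4.76-fold, a log2 fold change of -2.25 ± 0.52 (SE, adjusted p = 0.00607), and its groups overlapped, since mice 16 and 20 without ABX lay below mouse 13 with ABX. For the other 2 genes the test was not passed: Cp differed by -0.19 ± 0.13 (SE, adjusted p = 0.339) and Serpina1e by 0.20 ± 0.16 (SE, adjusted p = 0.419), both with overlapping groups. Other transcripts moved with ABX in the same mice. The summed cholangiocyte markers were 14.3 to 27.7 CPM without ABX and 9.37 to 10.2 CPM with ABX. Sox9 among them had a change of -1.25 ± 0.22 (SE, adjusted p = 0.000484). Pkhd1, the other tested cholangiocyte marker, was not lower, averaging 1.49 CPM without ABX and 1.94 CPM with ABX. The endothelial marker Stab1 had a change of -0.89 ± 0.26 (adjusted p = 0.0247). The part of these transcripts in the lower Serpina3i and A2m was not tested.

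Plate position bears on both calls. With plate column in the model, Serpina3i stood at -0.83 (adjusted p = 0.155) and A2m at -1.13 (adjusted p = 0.552), and neither was called, as was the case for all but 5 genes. Over the alternatives tried, adjusted p ranged from 3.03e-10 to 0.155 for Serpina3i and from 0.00182 to 0.552 for A2m. Within column 4, which holds all 5 anti-CD40 mice with ABX but only mouse 16 without, the difference was -0.84 in log2 CPM for Serpina3i and -1.38 for A2m. Mouse 16 was above all 5 mice with ABX in Serpina3i, at 105.6 against at most 68.6 CPM. In A2m its 8.41 CPM lay inside their range. For Cp and Serpina1e the differences within column 4 were 0.04 and 0.17.

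**Figure D2:**
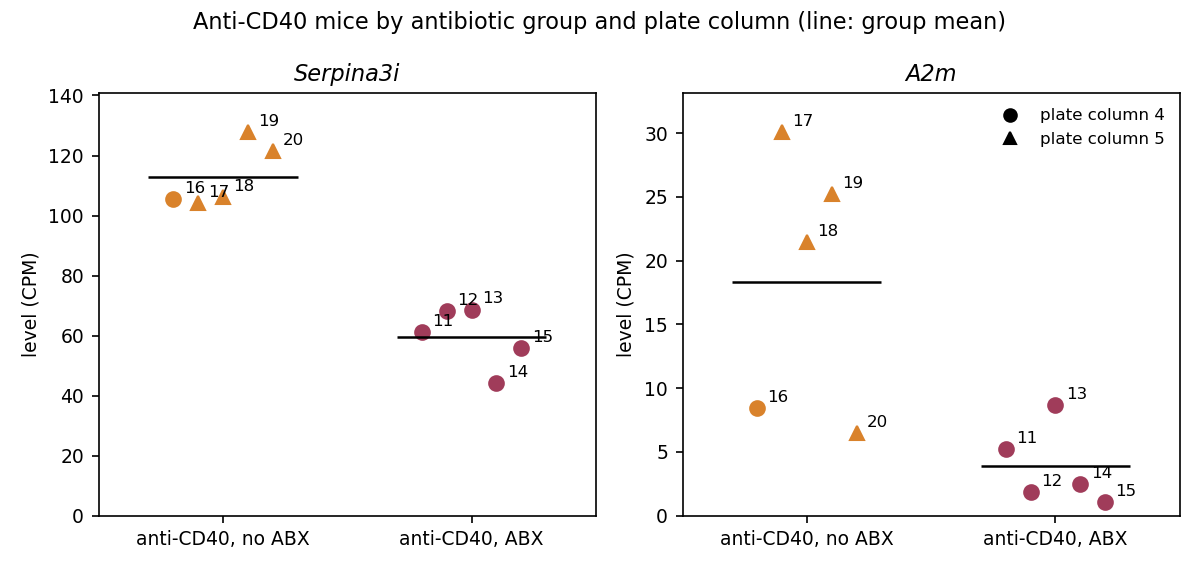
Levels of Serpina3i and A2m in CPM in each anti-CD40 mouse, numbered, with the group mean as a line and the symbol giving the plate column. The 5 mice with ABX, all in column 4, were between 44.2 and 68.6 CPM for Serpina3i, below every mouse without ABX, while for A2m the groups overlapped.

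In control mice, no difference with antibiotics was called in these 4 genes, in a comparison where 6.68% of genes were called by edgeR. The log2 fold changes were 0.05 ± 0.13 for Cp (SE, adjusted p = 0.894), -0.42 ± 0.49 for Serpina3i (adjusted p = 0.704), -0.96 ± 1.31 for A2m (adjusted p = 0.752) and -0.10 ± 0.16 for Serpina1e (adjusted p = 0.802), and the groups overlapped in each. Without mouse 8 the values were 0.24 for Cp, -0.20 for Serpina3i, 0.09 for A2m and 0.05 for Serpina1e, so the sign turned for A2m and Serpina1e. The control levels of Serpina3i and A2m rest on 7 to 26 counts per group, since these genes passed the filter through the anti-CD40 mice. At that depth a difference in control mice was hardly detectable, and the same limits the difference of effects. Within plate column 3, control mice with ABX minus those without differed by -0.02 for Cp, -0.60 for Serpina3i, -0.87 for A2m and -0.25 for Serpina1e in log2 CPM.

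Whether the anti-CD40 difference itself changed with ABX was tested as the difference of the 2 effects, for which edgeR called 7.55% of genes. That difference was -0.24 ± 0.18 for Cp (SE, adjusted p = 0.447), -0.50 ± 0.55 for Serpina3i (adjusted p = 0.619), -1.29 ± 1.65 for A2m (adjusted p = 0.690) and 0.30 ± 0.23 for Serpina1e (adjusted p = 0.441). None of the 4 was called, and the direction of the estimate depended on the fit for 3 of them: with plate column in the model it was 0.10 for Cp and 0.46 for A2m, and without mouse 2, a control with ABX, it was 0.08 for Serpina3i. Without mouse 8 the difference was -2.34 for A2m, -0.73 for Serpina3i and 0.16 for Serpina1e, and for Cp it was -0.43 (adjusted p = 0.0374), the lowest of the alternatives, whose adjusted p reached 0.900. The lower Serpina3i and A2m with ABX in anti-CD40 mice are thus not shown to differ from what ABX did in control mice. Within plate column 4, mouse 16 minus control mice 9 and 10 gave anti-CD40 differences without ABX of 2.26 for Cp, 6.72 for Serpina3i, 4.45 for A2m and -1.21 for Serpina1e in log2 CPM. No column held both kinds of mice with ABX.

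**Figure D3:**
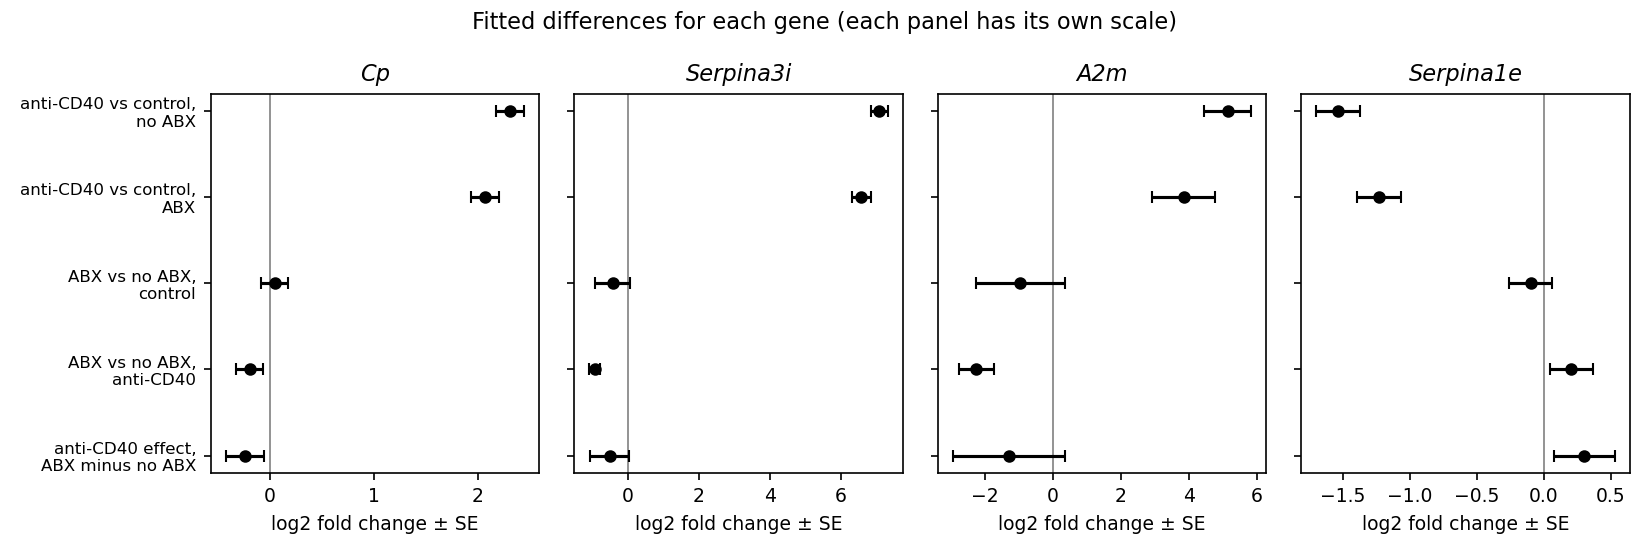
Fitted log2 fold changes (points) with standard errors (bars) for each gene in the 5 comparisons, each panel on its own scale. The anti-CD40 differences lie at 2.31, 7.08, 5.14 and -1.53 without ABX, and of the ABX comparisons only those of Serpina3i (-0.92) and A2m (-2.25) in anti-CD40 mice were called.

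Relatives of the 3 inhibitors could be read only in part. Among the alpha-1-antitrypsin copies, Serpina1d was counted on its own over 225 bp: it averaged 4562 and 2204 CPM in control and anti-CD40 mice without ABX, a log2 fold change of -1.05 ± 0.11 (SE, adjusted p = 9.19e-09 by edgeR), and 5810 and 2367 CPM with ABX, a change of -1.30 ± 0.11. A feature shared by Serpina1b, Serpina1d and Gm17043 averaged 2139 and 717 CPM without ABX, and a feature shared by Serpina1c, B430119L08Rik and Gm17198 averaged 3960 and 2390 CPM. A second, 11 bp feature of Serpina1e went from 1037 to 432 CPM. So each readable feature over this cluster was lower on average in anti-CD40 mice, and with near-identical exons these are not independent readings.

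The Serpina3 cluster did not move as one. An interval over exons of Serpina3h and Serpina3k, left out of the tests because it covers both, averaged 598 ± 150 CPM in controls without ABX and 205 ± 37.6 CPM in anti-CD40 mice, and 477 ± 85.8 and 130 ± 14.3 CPM with ABX (SD, n = 5). That is the opposite direction to Serpina3i. Its counts cannot be divided between Serpina3h and Serpina3k, so the direction of Serpina3h, the closest copy of Serpina3i, is not known. Serpina3a had 4, 5, 7 and 2 counts in the 4 groups and was below the filter. Of the alpha-2-macroglobulin family, A2ml1 could also be read, over 157 bp. It had 36 counts in anti-CD40 mice without ABX and 0 in the other 3 groups. By mouse these were 5, 9, 19, 1 and 2 in mice 16 to 20. In anti-CD40 mice with ABX, 3 counts over the group were taken as the limit that 0 allows. The pooled level without ABX was 11.3-fold that limit. That value leaves out the counting error of the 36 counts and the spread between mice, so it is no lower bound. A2ml1 was below the filter for testing.

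A pair of further serpins passed the filter, and both rose. Serpinb9, an intracellular inhibitor of granzyme B, went from 11.1 ± 1.87 to 111 ± 17.4 CPM without ABX (SD, n = 5; log2 fold change 3.32 ± 0.13, adjusted p = 6.12e-16 by edgeR). Serpina12, also called vaspin, went from 139.5 ± 43.1 to 328 ± 56.2 CPM (1.23 ± 0.17, adjusted p = 2.95e-06). With ABX the changes were 2.81 ± 0.13 and 0.61 ± 0.17, the latter lost with plate column in the model (0.42, adjusted p = 0.345). Of 48 serpins listed besides the described ones, 3 were tested, with 2 called higher and 1, Serpina1d, lower without ABX. Of all genes, 31.8% were called higher and 28.8% lower. The family as a whole was not measured.

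Of 41 other secreted inhibitors listed, 7 were tested: without ABX 1 rose, 3 fell and 3 did not pass, with a median log2 change of -0.50, and with ABX 1 rose and 6 fell, with a median of -1.03. The median of all genes was 0.03 and 0.02, with 31.8% called higher and 28.8% lower without ABX and 26.6% and 24.9% with ABX. Ambp, the precursor of alpha-1-microglobulin and bikunin, rose by 0.66 ± 0.14 without ABX (SE, adjusted p = 0.000341 by edgeR). Itih2, a heavy chain of the inter-alpha-trypsin inhibitors that bikunin is joined to, had a change of -0.87 ± 0.09 (adjusted p = 2.22e-08), and Tfpi, which inhibits the tissue factor pathway of coagulation, of -1.13 ± 0.35 (adjusted p = 0.00889). Kng1, the kininogen, changed by -0.52 ± 0.13 (adjusted p = 0.0015). The calls of Tfpi and Kng1 were lost with plate column in the model (-0.57 and -0.30).

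Of the proteases in blood and lysosomes, 8 of 67 listed were tested, with 4 higher and 4 lower without ABX and 3 higher and 3 lower with ABX. Of all genes, 31.8% were called higher and 28.8% lower without ABX, and 26.6% and 24.9% with ABX. Cpb2, a plasma carboxypeptidase that slows clot lysis, went from 529 ± 199 to 1688 ± 138 CPM without ABX (SD, n = 5; 1.67 ± 0.15, adjusted p = 1.98e-09 by edgeR), and Adamts1, a metalloprotease of the matrix, rose by 1.81 ± 0.27. Proc, the precursor of activated protein C, fell by 0.90 on the log2 scale, and Cpn1, a carboxypeptidase that acts on kinins and anaphylatoxins, by 0.60, with -0.46 and no call when plate column was in the model (adjusted p = 0.0807). Receptors that take up inhibitor complexes or other plasma proteins were also mixed, with 1 of 6 tested higher and 3 lower without ABX. The shares of all genes were 31.8% and 28.8%, as above. Among the lower ones, the calls of Asgr1 (-0.29) and Sort1 (-0.63) were lost with library totals as the only scaling (-0.06 and -0.38) and with plate column in the model (-0.25 and -0.84). The scavenger receptor Stab2 of sinusoidal endothelium changed by -3.36 ± 0.31 and Sorl1 by 2.86 ± 0.44.

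Around ceruloplasmin, 5 of 51 other copper and iron genes were tested: without ABX 0 rose, 3 fell and 2 did not pass, with a median of -0.40, and with ABX 1 rose and 2 fell, with a median of -0.11. For all genes the median was 0.03 and 0.02, with 31.8% called higher and 28.8% lower without ABX and 26.6% and 24.9% with ABX. Aco1, cytosolic aconitase, which doubles as an iron-regulatory protein, averaged 151 ± 13.1 CPM in controls and 68.2 ± 6.05 CPM in anti-CD40 mice without ABX (SD, n = 5; -1.14 ± 0.08, adjusted p = 1.54e-11 by edgeR). With ABX the averages were 142 ± 12.7 and 93.6 ± 5.66 CPM (-0.61 ± 0.08). The difference of those effects, 0.54 ± 0.11, was called (adjusted p = 0.00695), but no such difference was called with plate column in the model. Sod1, the copper- and zinc-containing superoxide dismutase, changed by -0.40 ± 0.15 (adjusted p = 0.025) and Xiap, which also takes part in copper handling, by -0.62 ± 0.12 (adjusted p = 0.000149), and both calls were lost with library totals as the only scaling (-0.16 and -0.36).

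Genes of interleukin and NF-kB signalling, some of which act upstream of acute phase genes, were listed too, and 6 of 56 were tested. Without ABX 3 rose and 1 fell, with a median of 1.32. With ABX 5 rose and 1 fell, with a median of 1.06. The median of all genes was 0.03 and 0.02, and 31.8% were called higher and 28.8% lower without ABX. With ABX these shares were 26.6% and 24.9%. Nfkb2, a subunit of NF-kB, rose by 3.38 ± 0.21 (SE, adjusted p = 1.56e-12 by edgeR), and the NF-kB regulators Nfkbia and Nfkbiz by 2.46 ± 0.16 and 2.31 ± 0.17. Il1rap, a part of the interleukin 1 receptor, changed by -1.28 ± 0.42 (adjusted p = 0.011) without ABX and by -2.13 ± 0.42 with ABX, and both calls were lost with plate column in the model (-1.11 and -1.88). The negative acute phase list held Alb, Proc and Kng1, and 3 of 3 fell without and with ABX, where 28.8% and 24.9% of all genes were called lower. Kng1 lost its call with plate column in the model, at -0.30 without ABX and -0.07 with ABX, and with library totals as the only scaling it was at -0.06 with ABX (adjusted p = 0.678). Alb, albumin, averaged 159626 ± 9355 and 60915 ± 9650 CPM without ABX (SD, n = 5), a change of -1.39 ± 0.13, close to that of Serpina1e. Of 46 other positive acute phase proteins, only Serpina1d was tested, and it fell, so the 4 genes described and Serpina1d are all that was tested of that list. Hepatocyte transcription factors had 1 of 4 tested genes higher and 3 lower without ABX, where 31.8% and 28.8% of all genes were so called. Tbx3 was among the lower ones, at -1.96 ± 0.28. With ABX 1, Xbp1, was higher, where 26.6% of all genes were. With plate column in the model the calls of Rxra (-0.63), Foxa2 (-1.38) and Xbp1 (0.30) without ABX were lost. The call of Xbp1 with ABX was lost there too (0.35).

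**Figure D4:**
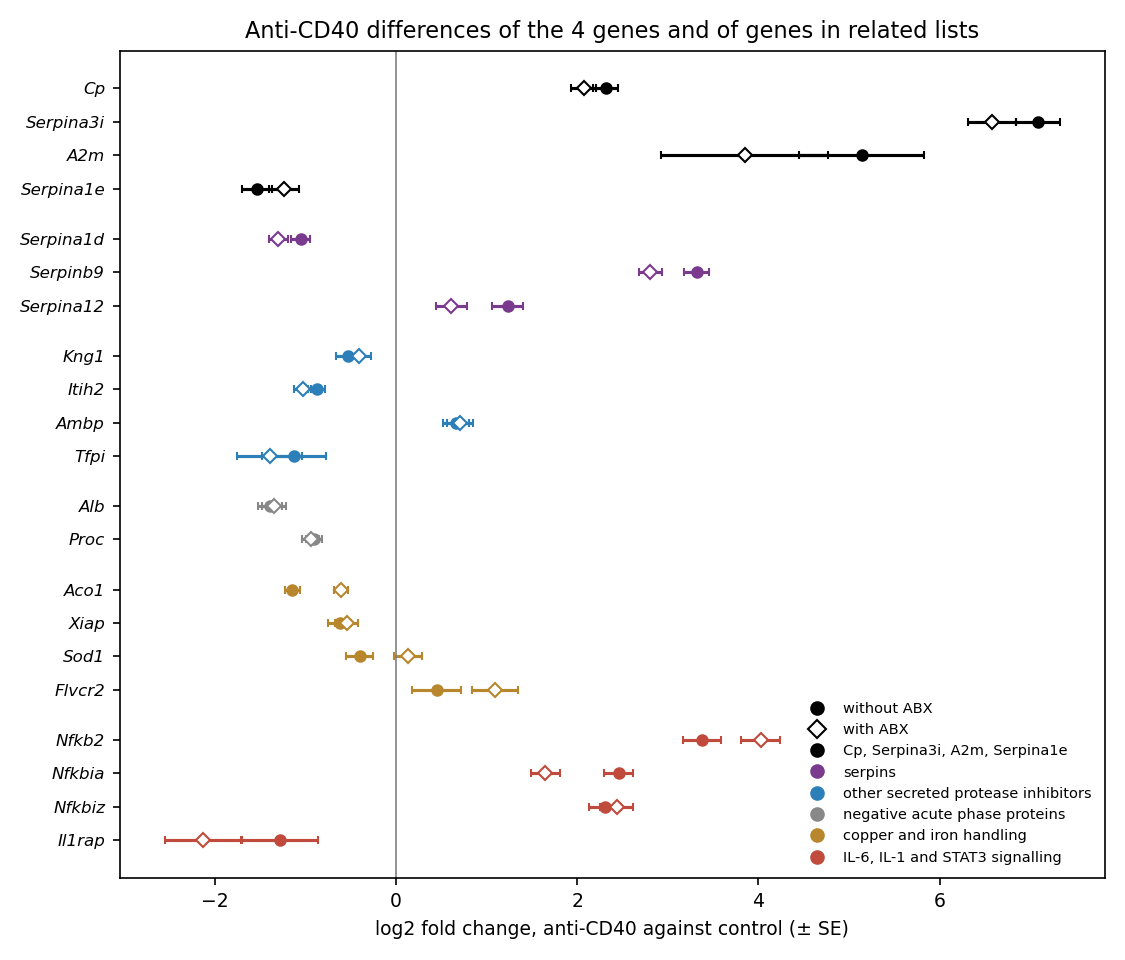
Log2 fold changes of anti-CD40 against control with standard errors, filled circles without ABX and open diamonds with ABX, for the 4 genes (black) and for the named genes of related lists (colours). Cp, Serpina3i and A2m lie on the right, as do Nfkb2, Nfkbia, Nfkbiz, Serpinb9, Serpina12 and Ambp. Serpina1e lies on the left, as do Serpina1d, albumin, Itih2 and Il1rap, the last from the same list as Nfkb2.

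The genes whose log2 CPM across the 20 libraries was most like each of the 4 were found among 2196 others, as a description without a test, since the groups form separate clusters and share depth and scaling. For Cp they were Alpk1 (Pearson r = 0.990), Ccdc122 (0.988) and Cpb2 (0.987). Alpk1, a kinase that senses a bacterial sugar, averaged 7.95 and 270 CPM in control and anti-CD40 mice without ABX. For Serpina3i they were Apaf1 (0.987), which forms the apoptosome, the hexose transporter Slc2a6 (0.983) and Lgals3bp (0.982). Slc2a6 averaged 1.69 and 133 CPM without ABX and 1.55 and 80.8 CPM with ABX. For A2m they were the immune receptor Treml2 (0.946), the cation channel Trpm2 (0.928) and the necroptosis kinase Ripk3 (0.926). In anti-CD40 mice Treml2 averaged 8.27 CPM without ABX and 3.88 CPM with ABX, and Trpm2 11.7 and 6.56 CPM. For Serpina1e they were the lysosomal mannosidase Man2b1 (0.938), Itih2 (0.936) and Dpyd (0.932), which breaks down pyrimidines. Dpyd averaged 615 and 151 CPM in control and anti-CD40 mice without ABX. Among the 4 genes, Cp and Serpina3i were closest (r = 0.976), A2m had r = 0.875 with Cp and 0.892 with Serpina3i, and Serpina1e ran opposite, from -0.790 with A2m to -0.910 with Serpina3i.

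Promoters are shown for the gene with the largest fold and for the one that went the other way. They are the 250 bases before the start in RefSeq (GRCm38.p6, the same sequence as mm10), written 5′ to 3′ along the gene, chr12:104262872-104263121 on the plus strand for Serpina3i and chr12:103956898-103957147 on the minus strand for Serpina1e. Capitals mark matches to 4 motifs searched on both strands: a STAT site (TTCNNNGAA), a C/EBP site (TTNNGNAA), an NF-kB site and the HNF1 core (GTTAAT).
Serpina3i: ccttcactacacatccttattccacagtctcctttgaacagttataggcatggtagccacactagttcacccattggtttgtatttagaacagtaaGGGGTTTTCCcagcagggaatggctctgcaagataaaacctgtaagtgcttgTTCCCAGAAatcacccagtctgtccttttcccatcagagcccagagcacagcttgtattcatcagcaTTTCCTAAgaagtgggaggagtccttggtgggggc
Serpina1e: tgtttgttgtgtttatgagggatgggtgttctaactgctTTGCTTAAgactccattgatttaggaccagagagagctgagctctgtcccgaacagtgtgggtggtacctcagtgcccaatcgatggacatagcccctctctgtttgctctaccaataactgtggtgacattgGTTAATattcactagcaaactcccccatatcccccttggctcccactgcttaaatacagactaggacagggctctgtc
In Serpina3i the NF-kB match GGGGTTTTCC starts at position -154 from the start, the STAT match TTCCCAGAA at -102 and the C/EBP match TTTCCTAA at -35, with no overlap. In Serpina1e the C/EBP match TTGCTTAA is at -211 and the HNF1 core GTTAAT at -78. Of 32851 promoters of this length, 7.02% held a STAT match, 7.25% an NF-kB match, 6.43% an HNF1 core and 36.8% a C/EBP match. Of the 2 listed starts of Cp, both had a C/EBP match and one an HNF1 core. These matches are descriptions of the letters, not sites shown to be bound.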

How the data were processed

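Liver RNA of 20 mice was sequenced, with 1 deposited table of raw counts per mouse. The submitters' processing notes name Trimmomatic 0.38 for trimming, HISAT2 2.1.0 for alignment and the build mm10. Per the file headers, the authors ran featureCounts 1.5.0-p2 on read pairs to make the deposited counts over exons of the human GRCh38 annotation, with no strand option and no option to count reads with several alignments. Feature positions were therefore read as mm10 and intersected (bedtools 2.31.1) with exons of GENCODE M21. A feature was given to a gene if it overlapped exons of that gene alone, by 50 bp or more (7463 of 58395 features, 46.35% of counts). Likeness to other genes was measured with blastn 2.17.0. The attributed counts were filtered with filterByExpr and fitted with edgeR 4.0.16 in R 4.3.3 (TMM factors, robust quasi-likelihood F-test, two-sided, 1 fit of 20 libraries with 4 group means), with library sizes over all features and Benjamini-Hochberg adjustment over 2200 genes. Calls were made where adjusted p was below 0.05. The scripts were tested on simulated data. CPM are TMM-normalised, and log2 CPM use a prior count of 2. The 4 genes, the lists and the rule for named genes (up to 4 tested genes per list by smallest p without ABX, the 3 genes most like each member, and readable relatives) were chosen with earlier results of these data known. A gene of the lists is not reported here. Alternatives were library totals, DESeq2 1.42.0 and its size factors, no filter, overlaps of 1 and 200 bp, plate column, and leaving out each mouse. The depth of 5053014 to 7618736 counts per library makes levels under about 1 CPM imprecise, and limits from counts cover counting error only.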

Additional observations from a re-analysis of the deposited data

Results flagged for a closer look

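A sample lay far from the other 4 of its group, by Dixon's test at the 95% level, in 19 of the group levels of named genes. The 4 genes and every named gene were each looked at in 4 groups. Chance flags about 1 group in 20, so many of the 19 flags could arise by chance, and their number was not tested against that rate. For mouse 8 the flags were more frequent than for the other mice. In mouse 8, a control without ABX, they were Cp (1638 CPM), Kng1 (11204), Ambp (6539), Cpb2 (884), Stab2 (56.0), Adgre1 (38.0), Lyz2 (201), Pecam1 (74.6), Alpk1 (18.2), Ccdc122 (13.3) and Lgals3bp (240), all in CPM. In mouse 1, a control with ABX, they were Cp (946), Ambp (3368), Foxa2 (135) and Sorl1 (5.29). The others were Ms4a7 in mouse 5 (1.48), a control with ABX, Aco1 in mouse 14 (104) and Il1rap in mouse 13 (2.36), both anti-CD40 mice with ABX, and Tbx3 in mouse 20 (33.4), an anti-CD40 mouse without ABX.

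The anti-CD40 effect differed between mice with and without ABX for 3 named genes by edgeR's test of the difference: Aco1 (0.54 ± 0.11, SE, adjusted p = 0.00695), Nfkbia (-0.81 ± 0.22, adjusted p = 0.0322) and Tbx3 (1.39 ± 0.40, adjusted p = 0.0417). No difference of effects was called for any gene with plate column in the model. A2ml1, below the filter for testing, had 36 counts in anti-CD40 mice without ABX and 0 in the other groups.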

How the results depend on the processing

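No paired analysis was possible because the mice are numbered 1 to 20 with no number shared between groups. Scaling by library totals alone moved the median of all genes to 0.27 without ABX and 0.37 with ABX, and the share of called genes that were higher from 52.5% to 69.7% and from 51.6% to 76.8%. For the difference of effects that share went from 57.8% to 80.3%, and for ABX in control mice from 51.7% to 20.1%. Under it, Cp with ABX stood at 2.42 and Serpina1e with ABX at -0.90. With plate column in the model, 735 genes were called for anti-CD40 without ABX, 690 with ABX, 77 for ABX in control mice, 5 for ABX in anti-CD40 mice and 0 for the difference of effects, where 282 genes had an unadjusted p under 0.05 by edgeR; DESeq2's test without that term called 201. The anti-CD40 differences with ABX became 2.36 for Cp, 6.86 for A2m and -0.80 for Serpina1e, A2m without ABX became 6.41, and ABX in anti-CD40 mice gave -0.83 for Serpina3i and -1.13 for A2m, neither called. Columns and groups overlap in few mice, so these fits rest on few libraries. With an overlap of at least 200 bp, 1422 genes were tested, 872 and 752 were called without and with ABX, and A2m, counted over 150 bp, had no value. Leaving out each mouse in turn gave 88 to 194 calls for the difference of effects, 89 to 157 for ABX in control mice and 225 to 380 for ABX in anti-CD40 mice. The first fell by over 1.5 times without mouse 14 (88), 18 (94), 10 (104), 4 (109) or 5 (110), the second without mouse 10 (89) or 4 (90) and the third without mouse 14 (225) or 18 (230). It gave -0.43 to -0.15 for the difference of effects of Cp, called only without mouse 8, and 4.81 to 6.19 for A2m without ABX. No direction of the 4 genes in an anti-CD40 comparison changed under the alternatives run. Few counts limit Serpina3i and A2m in control mice.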
